A study of Mus musculus with 6 samples.

Results

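The genes described here are 10 AP-1 and immediate early genes, chosen by symbol: the Fos subunits Fos, Fosb, Fosl1 and Fosl2, the Jun subunits Jun, Junb and Jund, and Egr1, Ier2 and Ier3. All 10 were among the 16081 genes listed for the series, and 8 of them passed the filter on low counts and were among the 11552 genes tested. Fos and Egr1 did not pass it, and their counts are given without a test across genes. They were measured by RNA-seq in Lewis cells, which are a line of mouse lung carcinoma, in 2 groups of 3 samples. One group was kept for 24 hours with SD70, an inhibitor of the histone demethylase KDM4C, and the other for 24 hours with its vehicle, DMSO. All 6 samples come from 1 cell line, and the SD70 dose of this experiment is not given in the sources used here. The labels do not say that samples of a group are separate cultures. The study's methods speak of independent repeats for its experiments in general, and not for the RNA-seq by name. The p-values thus measure only the spread between these samples, which may be technical.

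Activator protein 1 (AP-1) is a transcription factor made of pairs of basic leucine zipper (bZIP) proteins. Jun proteins pair with each other or with a Fos protein, whereas Fos proteins need a Jun partner, and the make-up of the pair sets how strongly it binds and activates DNA. Many of these genes belong to the immediate early genes, which are switched on within minutes of growth factors, stress or membrane depolarisation, before any new protein is made, and whose messenger RNAs decay quickly. In tumor cells, AP-1 is known for driving proliferation, invasion and inflammatory genes. The cells were measured at 24 hours only, so an early burst was not sampled.

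The libraries held between 15276744 and 17060424 expected counts, with 14062 to 14105 genes detected in each. Kdm4c, which encodes the enzyme that SD70 inhibits, was at 753 ± 34.6 normalized counts in DMSO cells against 765 ± 34.2 in SD70 cells (SD of 3 samples), and the difference did not pass the test (edgeR adjusted p = 0.769). Since SD70 acts on the protein, this mRNA does not check the labels. Markers of the labelled lung adenocarcinoma cells were mixed. The epithelial genes Epcam, Cdh1 and Krt19 and the lung surfactant gene Sftpc had at most 1 count in any sample, whereas Krt8 had between 2382 and 4150, Krt18 between 31 and 101 and Napsa, a lung adenocarcinoma marker, between 65 and 85. The mesenchymal marker Vim had between 44823 and 73431 counts. Of 8 listed immune cell markers, 5 had at most 6 counts in any sample, among them the pan-leukocyte gene Ptprc. The summed immune markers ranged from 266 to 277 normalized counts with DMSO and from 191 to 224 with SD70, most of it from Cd68. The mesenchymal sums, almost all Vim and Fn1, were from 74700 to 84100 with DMSO and between 57000 and 61400 with SD70, whereas Zeb1 of the same list was higher with SD70 (1510 against 2339 normalized counts, edgeR adjusted p = 2.11e-12). The epithelial sums, carried by Krt8, lay between 3920 and 4110 with DMSO and between 2570 and 2900 with SD70. The endothelial sums, from 55.5 to 66.2 and from 61.6 to 73.7, overlapped. The other shifts moved with the groups, and their part in the results was not tested. In bulk samples, fewer cells of a type and less RNA per cell cannot be told apart.

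Sequence elements known for the control of these genes were looked up first. In the RefSeq promoter table (GRCm38.p6), 7 of the 10 genes had a window of 250 bases before to 50 bases after the start, namely Fos, Fosb, Fosl2, Jun, Junb, Jund and Ier3. The letters TGACATCA, a variant of the AP-1 and CRE motif through which Jun is known to act on its own promoter, stood 45 bases before the start of Jun, on its strand. They were found on either strand in 3.62% of all 32851 promoter windows, and in no other of the 7. The letters TGACG, the shared core of the cyclic AMP response element, were found in Fos (at 129 and 66 bases before the start), Fosb (60 bases) and Junb (106 bases). That core is short and occurs in 20.8% of all windows. To show these matches in place, 30 bases around each are given 5′ to 3′ on the strand of the gene, with the match in capitals; they are chr12:85473812-85473841 (plus) for Fos, chr7:19310088-19310117 (minus) for Fosb, chr4:95052249-95052278 (minus) for Jun and chr8:84978837-84978866 (minus) for Junb.
Fos: agttccgcccagTGACGtaggaagtccatc
Fosb: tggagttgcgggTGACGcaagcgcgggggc
Jun: aagcctcggggTGACATCAtgggctatttt
Junb: gcttcctgacagTGACGcgagccgcctcct

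The start used for Fosb in the table lies inside the span of the gene record given further on. The other motifs searched, on both strands, were TGANTCA (the classical AP-1 site, in 7.81% of windows), TGACGTCA (the full cyclic AMP response element, which contains TGACG, 1.79%), the CArG box bound by serum response factor (1.63%) and GCGNGGGCG (the Egr1 site, 5.55%). Of these, GCGNGGGCG was found in Fosb (50 bases before the start) and Fosl2 (79 bases), and the others were found in none of the 7 windows. A match is a run of letters and was not tested for binding, and the absence of a match concerns only these windows.

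Rapid decay of immediate early messenger RNAs is known to run through AU-rich elements in the 3′ UTR. In the GENCODE M21 transcript with the longest 3′ UTR of each gene, the AU-rich heptamer TATTTAT was present in 7 of the 10 genes, against 27.5% of 20981 coding genes. It was counted 4 times in Ier3, 3 times in Fosl2, 2 times in Fos and 1 time each in Fosb, Fosl1, Jun and Jund. Junb, Ier2 and Egr1 had none, and Ier2 also lacked the shorter ATTTA, of which Junb and Egr1 had 2 each. The 3′ UTRs were between 485 bases (Junb) and 4653 bases (Fosl2) long. Jun, Junb, Jund and Ier2 were single-exon genes, Egr1 and Ier3 had 2 exons and the Fos genes had 4, against a median of 7 over the coding genes. For the most abundant Fos and Jun subunits in DMSO, for Fos itself and for Ier3, 25 bases around 1 heptamer (in capitals; the Ier3 stretch also holds another in lower case) are printed on the strand of the gene, from chr12:85477105-85477129 (plus, Fos), chr19:5455869-5455893 (plus, Fosl1), chr4:95049081-95049105 (minus, Jun) and chr17:35822483-35822507 (plus, Ier3) of GRCm38.
Fos: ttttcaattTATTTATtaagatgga
Fosl1: ggcagctgcTATTTATtttcctaaa
Jun: gcttgtgcaTATTTATaatagcgtt
Ier3: tctaattaaTATTTATgtatttatg

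The first comparison asked which of these genes differed after 24 hours of SD70. Ier2 and Junb rose the most, Jund rose less, and Fosb, Jun and Fosl2 fell, whereas Fosl1 and Ier3, the most abundant of the set, did not pass the test. At an adjusted p-value under 0.01 in edgeR's quasi-likelihood test, 6 of the 8 tested genes passed, 3 higher and 3 lower with SD70. Of all genes tested, 49.9% passed this threshold, 25.8% higher and 24.2% lower, so that passing it does not set a gene apart in these data. With a fold change of at least 2 as a further requirement, Ier2 and Junb were called higher and Fosb lower, against 5.9% of all genes tested, 3.29% higher and 2.61% lower. In the same 6 genes that passed, the groups did not overlap. This was the case for 64.4% of all genes tested, 32.8% with SD70 higher and 31.6% with SD70 lower. An exact permutation test of 3 samples against 3 cannot give a p below 0.1.

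**Figure D1:**
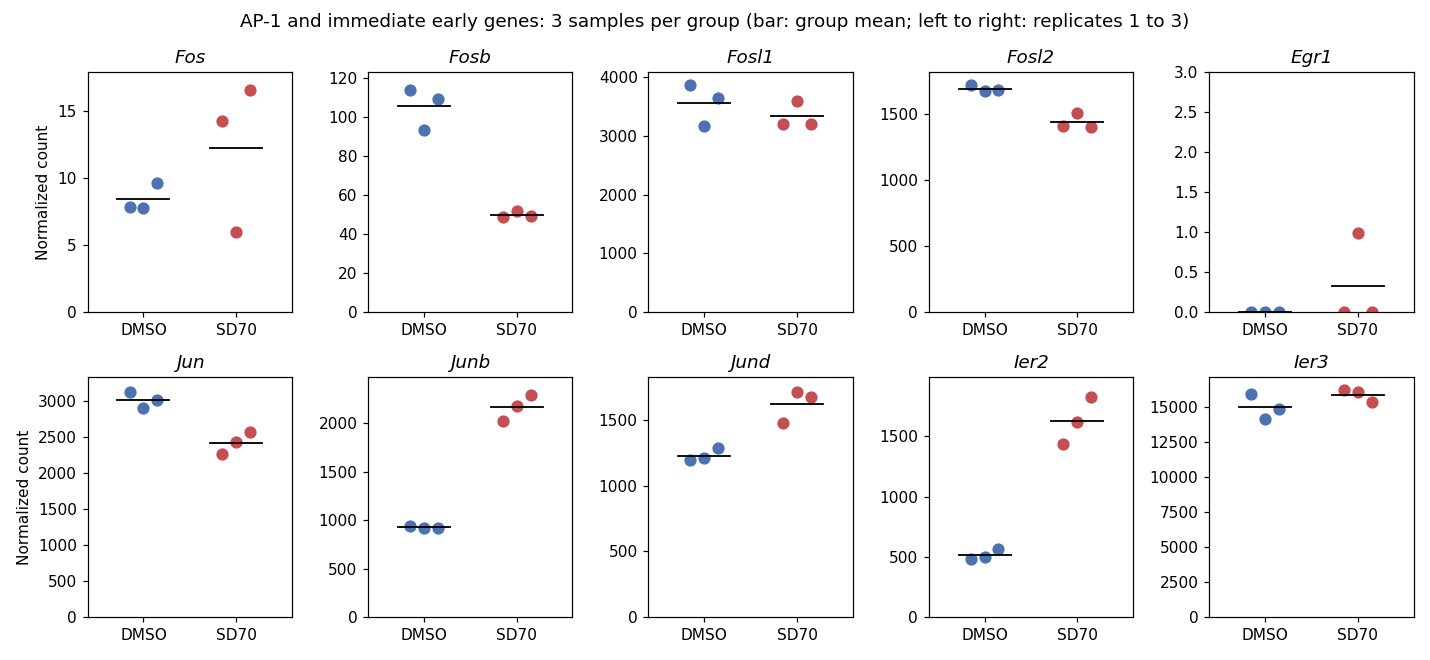
Normalized counts of each of the 10 genes in each of the 6 samples (vertical axis, linear from 0, separate scale per gene), with DMSO in blue, SD70 in red and a bar at the group mean. The groups are apart for Fosb, Fosl2, Jun, Junb, Jund and Ier2, overlap for Fos, Fosl1 and Ier3, and Egr1 has a single count in 1 SD70 sample.

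**Figure D2:**
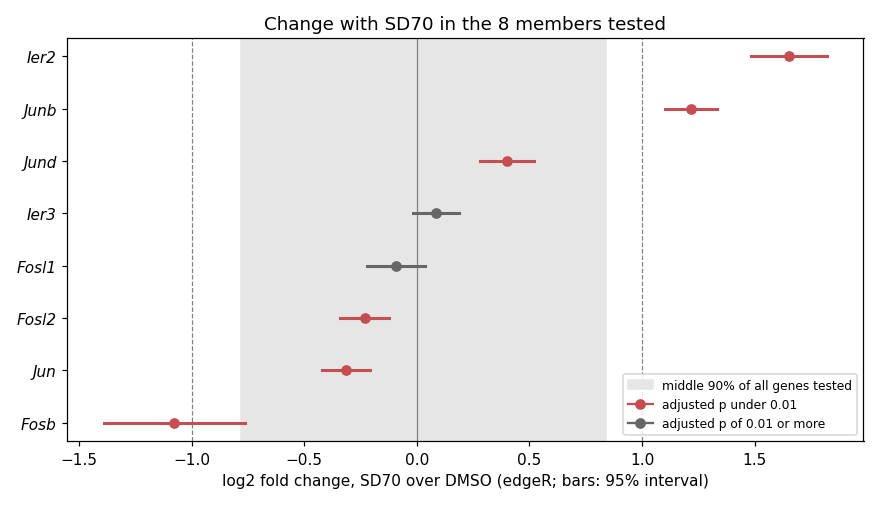
Log2 fold change, SD70 over DMSO, of the 8 tested genes with its 95% interval (edgeR), beside the band that holds the middle 90% of all genes tested (grey, from -0.78 to 0.84). Ier2 and Junb lie above the band, Fosb is below it with the upper end of its interval inside, and the other 5 lie within it.

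Among the Jun subunits, the 3 genes moved in different directions. Junb (NCBI Gene 16477, chr8:84976909-84978748, minus strand), whose protein activates weakly and can restrain Jun, had 939, 920 and 924 normalized counts with DMSO (samples 1, 2 and 3, as in all such series of values) and 2020, 2174 and 2286 with SD70. Every SD70 sample was at more than 2 times the highest DMSO sample. The log2 fold change was 1.22 (standard error 0.0570, 95% interval from 1.10 to 1.33, edgeR adjusted p = 3.10e-19), which is 2.33-fold higher with SD70. Of all genes tested, 2.06% had a higher log2 fold change than Junb.

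Jun (NCBI Gene 16476, chr4:95049036-95052222, minus strand), the founding AP-1 subunit and a strong activator, had 3134, 2903 and 3016 normalized counts with DMSO and 2271, 2436 and 2570 with SD70. The groups did not overlap, and the fall was 1.24-fold (log2 fold change -0.32, standard error 0.0529, 95% interval from -0.42 to -0.21, edgeR adjusted p = 4.31e-06). Jund (NCBI Gene 16478, chr8:70697739-70700616, plus strand), the subunit that most cells keep at a steady level, had 1190, 1206 and 1283 normalized counts with DMSO and 1477, 1709 and 1671 with SD70. It was 1.32-fold higher with SD70 (log2 fold change 0.40, standard error 0.0590, 95% interval from 0.28 to 0.52, edgeR adjusted p = 4.58e-07), and again no SD70 sample reached down to the DMSO range. Of all genes tested, 15.8% had a higher log2 fold change than Jund, and 20.3% had a lower one than Jun. In the GENCODE annotation, Jun overlaps Junos, Jund overlaps Gm11175 and Junb overlaps Prdx2, and the library protocol mentions no step that marks strand, so reads from such overlaps cannot be told apart. All Jun and Fos counts other than those of Fosl1 were whole numbers in the 6 samples.

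Of the Fos subunits, Fosb and Fosl2 fell, Fosl1 did not pass and Fos was too low to test. Fosb (NCBI Gene 14282, chr7:19302696-19310118, minus strand), which lasts longer after a stimulus than Fos in its truncated form, had 114, 93.2 and 109 normalized counts with DMSO and 48.7, 51.6 and 49.5 with SD70. All SD70 samples were well under the lowest DMSO sample. The fall was 2.11-fold (log2 fold change -1.08, standard error 0.155, 95% interval from -1.39 to -0.76, edgeR adjusted p = 3.01e-07). Of all genes tested, 2.04% had a lower log2 fold change. At this low level the size depends on the scale: on log2(FPKM + 1) the change was -0.63, and the 2-fold call was lost.

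Fosl2 (NCBI Gene 14284, chr5:32136472-32157840, plus strand), which encodes Fra-2, had 1718, 1672 and 1684 normalized counts with DMSO and 1410, 1508 and 1404 with SD70, without overlap. This 1.17-fold fall passed the test (log2 fold change -0.23, standard error 0.0538, 95% interval from -0.34 to -0.12, edgeR adjusted p = 3.94e-04), although 26.5% of all genes tested had a lower log2 fold change. Fosl1 (NCBI Gene 14283, chr19:5447698-5455938, plus strand), which encodes Fra-1, the Fos protein often found in invasive tumor cells, had 3866, 3177 and 3644 normalized counts with DMSO and 3210, 3595 and 3210 with SD70. The lowest sample of all was a DMSO sample, and the groups overlapped. Its log2 fold change of -0.09 (standard error 0.0627, edgeR adjusted p = 0.206) has a 95% interval from -0.22 to 0.04, which leaves room for a fall of up to 1.17-fold. Fosl1 was the only gene of the set with counts that were not whole, in 6 of 6 samples. It overlaps Ccdc85b, and in 5 of 6 samples the counts of the 2 genes added up to a whole number within 0.011, so that a part of the Fosl1 count is an apportioned share. Ccdc85b itself fell (log2 fold change -0.47, edgeR adjusted p = 1.57e-06), and how much this touches Fosl1 was not tested.

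Fos (NCBI Gene 14281, chr12:85473890-85477274, plus strand), the classical marker of acute stimulation, had raw counts of 8, 8 and 10 with DMSO and 14, 6 and 15 with SD70. The lowest and the highest value were both in SD70 samples, and the exact two-sided permutation test of the normalized counts gave p = 0.4. In a fit without the filter on low counts, the log2 fold change was 0.52 (standard error 0.426, edgeR adjusted p = 0.355). No change in Fos was detected at these counts.

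Outside the AP-1 subunits, Ier2 (NCBI Gene 15936, chr8:84661331-84662852, minus strand), a short immediate early gene whose nuclear protein has been tied to cell motility, had 485, 497 and 568 normalized counts with DMSO and 1434, 1617 and 1828 with SD70. The lowest SD70 sample was above the highest DMSO sample by more counts than the whole DMSO level. The gene was 3.14-fold higher with SD70 (log2 fold change 1.65, standard error 0.0813, 95% interval from 1.48 to 1.82, edgeR adjusted p = 6.68e-13), and 1.06% of all genes tested had a higher log2 fold change.

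Ier3 (NCBI Gene 15937, chr17:35821713-35822911, plus strand), also called IEX-1, which modulates apoptosis and ERK signalling, had 15906, 14127 and 14827 normalized counts with DMSO and 16187, 16022 and 15322 with SD70, with overlapping groups. Its log2 fold change was 0.08 (standard error 0.04997, edgeR adjusted p = 0.149), and the 95% interval from -0.02 to 0.19 allows at most a 1.14-fold rise. Egr1 (NCBI Gene 13653, on chromosome 18), a zinc finger factor of the same early response, had 0 counts in 5 of 6 samples and 1 count in the SD70 sample 2. A count of 0 allows up to 3 counts, or between 0.176 and 0.196 CPM in these libraries, for counting error only. Of the other Egr genes, Egr2 did not pass (log2 fold change 0.20, edgeR adjusted p = 0.593), whereas Egr3 rose, with 133 ± 6.96 normalized counts in DMSO cells and 197 ± 10.6 in SD70 cells (SD of 3 samples, edgeR adjusted p = 3.31e-05).

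To compare levels between genes, the FPKM values that the authors deposited were used, since these are scaled by gene length. With DMSO, Ier3 was the highest at 993 ± 64.7 FPKM, 98th of all 16081 listed genes, followed by Fosl1 at 142 ± 13.9, Jun at 61.1 ± 2.29, Junb at 33.9 ± 0.508 and Jund at 27.7 ± 0.992 (SD, n = 3 each). Ier2 at 23.3 ± 1.79 FPKM and Fosl2 at 18.2 ± 0.240 came next, with Fosb at 1.85 ± 0.176, Fos at 0.267 ± 0.0289 and Egr1 at 0 behind them. No neighbours in this order had overlapping ranges. Fosl1 and Jun were the highest of the AP-1 subunits, and the mRNA of the classical Fos was the lowest.

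With SD70, Ier3 (1036 ± 24.4 FPKM) and Fosl1 (130 ± 8.42) kept the first places, while Junb (77.5 ± 4.98) and Ier2 (72.2 ± 9.01) stood above Jun (48.0 ± 3.05). The Junb and Ier2 ranges overlapped, so that the ranges do not settle their order. Within each SD70 sample Junb was above Ier2, though only just in sample 3 (82.28 against 81.48 FPKM). Jund (35.7 ± 2.81), Fosl2 (15.1 ± 0.644), Fosb (0.833 ± 0.0306) and Fos (0.383 ± 0.172) followed, and Egr1 was at 0, 0.02 and 0 FPKM. Junb moved from rank 2662 to rank 1098 among the listed genes and Ier2 from 3804 to 1201.

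The second comparison asked how the make-up of the Jun and Fos mRNA pools differed, as the share of each subunit in the summed FPKM of its family. Per length, the largest share of the Jun pool was that of Jun with DMSO and that of Junb with SD70. The Jun share was 50.9%, 49.1% and 49.4% with DMSO and 29.8 ± 0.286% with SD70 (SD, n = 3), a difference of -20.0 percentage points. The Junb share was 27.6%, 28.1% and 27.2% with DMSO and 48.3%, 47.5% and 48.3% with SD70, a difference of 20.4 points. Each group stayed within 2 points for both genes, far less than the distance between the groups. Both differences had the smallest p that this design allows (exact two-sided permutation test, p = 0.1, 0.14 after Benjamini-Hochberg adjustment over 7 shares).

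On expected counts, which are not scaled by length, the mean Jun share was 58.3% with DMSO and 39.1% with SD70 and the mean Junb share 17.9% and 34.8% (n = 3 each, SD at most 1.1 points), so that Jun kept the largest share of reads. The Jund shares overlapped on FPKM, at 22.6 ± 0.946% of the Jun pool in DMSO and 22.2 ± 0.760% in SD70 (exact permutation p = 0.7). On expected counts they did not overlap and the direction turned, with 22.6%, 24.0% and 24.6% with DMSO and 25.6%, 27.0% and 25.6% with SD70 (exact permutation p = 0.1). The summed Jun pool was larger with SD70, at 161 ± 10.5 FPKM against 123 ± 2.45, a ratio of 1.31 without overlap (exact permutation p = 0.1). Shares within a pool are tied to each other, so that the fall of Jun and the rise of Junb are not independent results.

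Fosl1 was the main subunit of the Fos pool in both groups, followed by Fosl2. Per length, Fosl1 made up 88.2%, 86.4% and 87.7% with DMSO and 88.7%, 89.2% and 88.7% with SD70, and Fosl2 made up 11.3 ± 0.901% and 10.3 ± 0.185%. The Fosb share went from 1.14 ± 0.0184% to 0.569 ± 0.0221%, and these 3 subunits did not overlap between groups (exact permutation p = 0.1 each, 0.14 adjusted over the 7 shares). Fos held 0.165 ± 0.0206% and 0.267 ± 0.129%, with overlap (exact permutation p = 0.4). The summed Fos pool was 162 ± 14.3 FPKM with DMSO and 147 ± 8.92 with SD70 (ratio 0.905, exact permutation p = 0.2). On expected counts, Fosl1 held 66.3 ± 1.87% with DMSO and 68.9 ± 0.627% with SD70, Fosl2 31.6 ± 1.93% and 29.8 ± 0.478%, and Fosb 1.96 ± 0.0691% and 1.03 ± 0.0294%. The FPKM share differences of Fosl1 (1.42 points) and Fosl2 (-0.956) fell to 0.929 and -0.455 without DMSO sample 2.

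**Figure D3:**
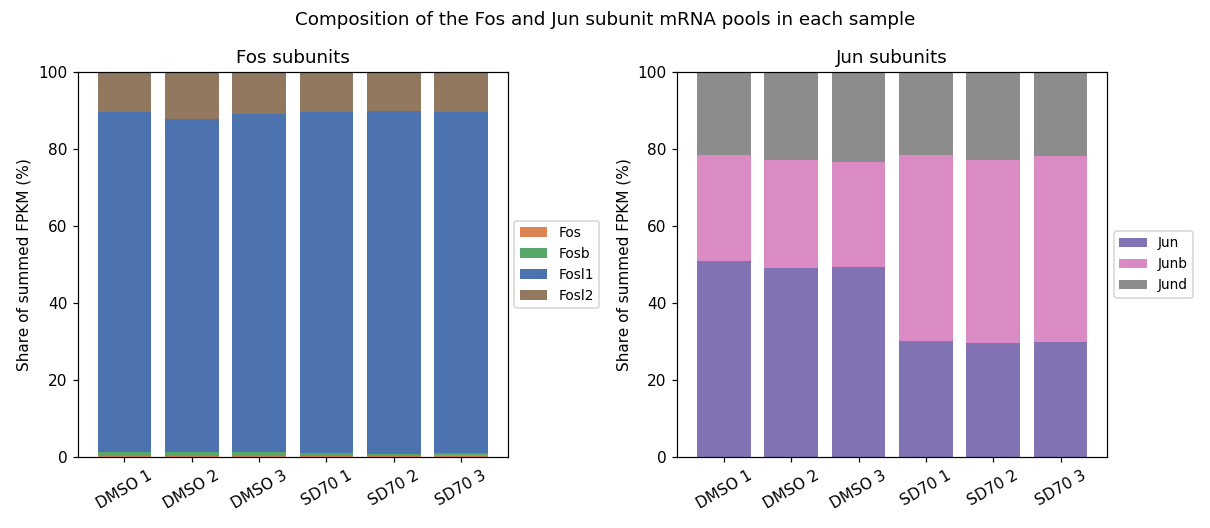
Share of each subunit in the summed FPKM of the 4 Fos subunits (left) and the 3 Jun subunits (right), as a percentage of the pool in each of the 6 samples. Fosl1 fills most of the Fos pool in every sample, and the Jun share of the Jun pool is 49.8% on average with DMSO and 29.8% with SD70, while the Junb share is 27.7% and 48.1%.

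Related genes were next compared within each sample, as the log2 of their FPKM ratio. The Jun/Junb ratio was 0.88, 0.81 and 0.86 with DMSO and -0.69, -0.69 and -0.69 with SD70, from 1.80 Jun per Junb to 0.620. The SD70 samples were almost identical in this ratio, although both genes varied among them. The Junb/Jund ratio went from 1.23 to 2.17 and the Jun/Jund ratio from 2.21 to 1.35, so all 3 ratios among the Jun genes left the DMSO range. Ier2 was at 0.0235 of the Ier3 level with DMSO and at 0.0693 with SD70. The Fosl1/Fosl2 ratio was 7.78 against 8.62, a log2 difference of 0.149 that was 0.0773 without DMSO sample 2. The Fos/Fosb ratio went from 0.144 to 0.422, on few Fos reads, with SD70 sample 2 apart from the other two. All 6 ratios were without overlap between groups (exact two-sided permutation test, p = 0.1 each and 0.1 after adjustment over the 6 pairs). Among single genes tested, 64.4% did not overlap either, and no such share was computed for ratios. A ratio can leave its range through 1 partner alone, and Fos and Ier3 themselves overlapped between groups. The 3 Jun ratios are tied to each other and are not separate results.

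Genes around this set were taken from lists of symbols and read off the same fit, and each count is to be set against the 25.8% higher and 24.2% lower among all genes tested. Of 34 other immediate early genes, 28 were tested, of which 15 were higher, 7 lower and 6 did not pass (median log2 fold change 0.22, against -0.0043 over all genes tested). At 2-fold, 7 were called higher and 2 lower, against 3.29% and 2.61% of all genes tested. The genes named next had the largest changes and all rose, so they do not show the 7 that fell. Atf3, a bZIP repressor and stress gene, rose from 285 ± 11.9 to 3802 ± 365 normalized counts (log2 fold change 3.74, edgeR adjusted p = 3.72e-29). Nfkbiz, a nuclear regulator of NF-kappaB targets, rose from 2228 ± 87.2 to 6871 ± 330 (1.62, edgeR adjusted p = 7.54e-24). The oncogene Myc rose from 5823 ± 296 to 13749 ± 627 (1.24, edgeR adjusted p = 1.06e-20), and Klf4, a zinc finger factor, rose from 30.01 ± 3.29 to 107 ± 13.6 (1.83, edgeR adjusted p = 5.69e-11; SD, n = 3 for each gene and group). On log2(FPKM + 1), the change of Klf4, a low gene, was 0.98.

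The other bZIP proteins, which can pair with Jun or Fos or bind related sites, were mostly higher. Of 15 tested, 11 were higher, 1 was lower and 3 did not pass, with a median log2 fold change of 0.53, and 6 were called higher at 2-fold, against 3.29% of all genes tested. Maf, named here after its value was seen, was the 1 gene called lower at 2-fold (log2 fold change -1.34, edgeR adjusted p = 1.91e-06). Beside Atf3, which is in both lists, the higher genes were led by Ddit3, the stress factor CHOP (449 ± 25.6 to 2832 ± 62.9 normalized counts, log2 fold change 2.66, edgeR adjusted p = 2.37e-28). Atf4, the main factor of the integrated stress response, rose from 7829 ± 1000 to 31299 ± 703 (2.00, edgeR adjusted p = 1.57e-13). Jdp2, a repressor that pairs with Jun, rose from 298 ± 26.9 to 987 ± 26.9 (1.73, edgeR adjusted p = 1.67e-20; SD, n = 3 for each gene and group).

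Few of the factors known to control immediate early genes passed the test. Of 9 SRF, TCF and CREB factors and co-activators, 7 did not pass. Elk3 fell (log2 fold change -0.39, edgeR adjusted p = 2.90e-08), and Crebbp rose by 0.30 (edgeR adjusted p = 0.0013), a call that was lost without DMSO sample 3 (edgeR adjusted p = 0.0232) or without SD70 sample 2 (0.0188) and on the FPKM scale. Srf itself had a log2 fold change of -0.12 (edgeR adjusted p = 0.0808) and the co-activator Ep300 of 0.13 (0.0343). These were -0.0678 for Srf without SD70 sample 1 and 0.0774 for Ep300 without SD70 sample 3. The kinases of the MAP kinase pathways were MAP kinases, the kinases that activate them and the RSK and MAPKAP kinases downstream. Of 19 tested, 2 were higher, 5 lower and 12 did not pass. In this list 0 reached 2-fold, against 5.9% of all genes tested, which does not set so short a list apart. The ERK1 gene Mapk3 fell by 0.48 on the log2 scale (edgeR adjusted p = 1.68e-09), Map2k1, which encodes MEK1, by 0.37 (1.35e-07) and the downstream kinase gene Mapkapk2 by 0.36 (3.53e-07), whereas Rps6ka3, which encodes RSK2, rose by 0.27 (4.10e-05). These are mRNA levels and do not show kinase activity.

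Known AP-1 targets moved in both directions. Of 19 tested, 10 were lower, 4 higher and 5 did not pass (median log2 fold change -0.19). The urokinase gene Plau fell from 3237 ± 274 to 1237 ± 88.6 normalized counts (log2 fold change -1.39, edgeR adjusted p = 3.10e-18) and the growth factor gene Hbegf from 1062 ± 74.4 to 602 ± 54.1 (-0.82, 1.90e-12). In the opposite direction, the collagenase gene Mmp13 rose from 66.1 ± 5.21 to 257 ± 8.57 (1.96, edgeR adjusted p = 4.07e-16; SD, n = 3 for each gene and group). Of 12 genes for the turnover of Fos and Jun proteins and mRNAs, 3 were higher, 3 lower and 6 did not pass (median log2 fold change 0.0399). Det1, a part of a ubiquitin ligase for Jun, rose by 0.65 (edgeR adjusted p = 1.58e-07), whereas Trib1 (-0.53, 4.10e-07) and Trib2 (-0.34, 1.83e-04), adaptors of the COP1 ligase, fell, as did Zfp36l2, which encodes a protein that binds AU-rich elements (-0.32, 1.01e-06).

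**Figure D4:**
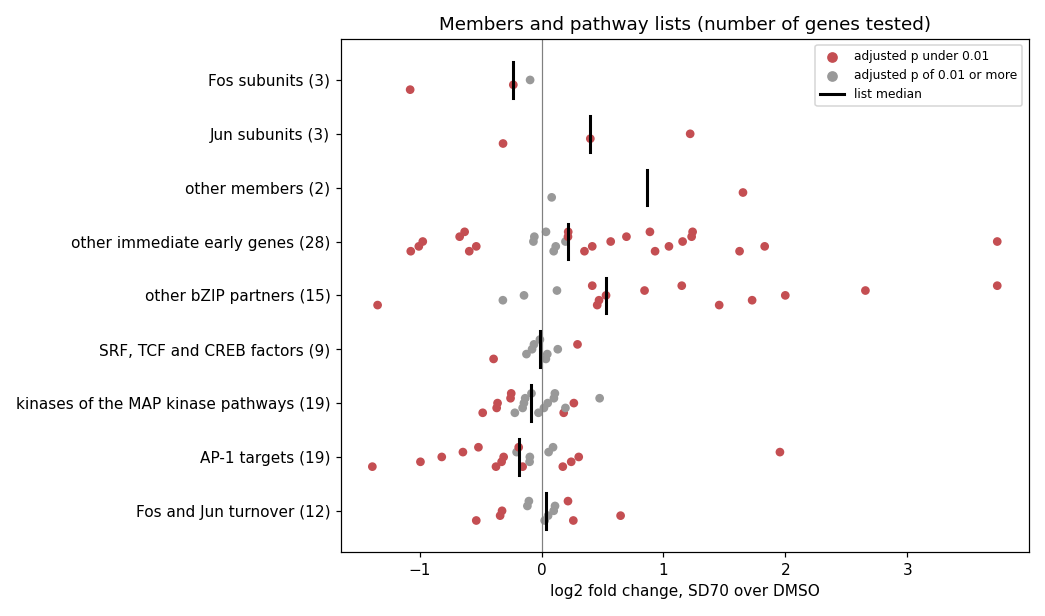
Log2 fold change, SD70 over DMSO, of each tested gene of the set (top 3 rows) and of the 6 lists around it, red where the edgeR adjusted p was under 0.01, with a black bar at the median of the row. The row of other bZIP partners has the highest median of the 6 lists, 0.53, with 11 of 15 genes higher. The rows of SRF, TCF and CREB factors and of MAP kinase pathway kinases hold no gene called at 2-fold, against 5.9% of all genes tested. Genes in 2 lists are drawn in both.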

How the data were processed

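RNA-seq was analysed in 6 samples of Lewis cells, 3 with DMSO and 3 with SD70, grouped by the sample labels. Per the labels, libraries were made with oligo(dT) beads and random hexamers. Per the study's methods, the BGISEQ-500 platform was used and reads were aligned to GRCm38.p6 with HISAT. The submitters' processing notes name StringTie 1.3.3b and the build mm8, and the files hold no coordinates, so all positions given are from RefSeq or GENCODE M21 on GRCm38. The authors deposited an expected count per gene, which is not normalized and need not be whole (8.84% to 9.28% of values per sample were not). Also deposited was the FPKM of each gene, scaled by gene length and library size, which was used for levels, shares and ratios without a filter.

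Expected counts were rounded and tested in edgeR 4.0.16 (R 4.3.3) with filterByExpr, TMM (factors from 0.984 to 1.02), glmQLFit (robust) and glmQLFTest, with Benjamini-Hochberg adjustment over the 11552 genes tested. Normalized counts are scaled to the mean effective library size. Standard errors were obtained from the quasi-likelihood F statistic. Genes were called at an adjusted p under 0.01, and at 2-fold where the log2 fold change was also 1 or more in size. Totals of 15276744 to 17060424 counts and 3 samples per group set the precision (biological coefficient of variation 0.046). Samples within a group differed by more than sampling noise (chi-square from 2.12 to 4.97 per gene), and all were kept.

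The 10 genes and the lists were chosen with earlier results of these data known. From each list, at most 4 genes of the largest absolute log2 fold change are named, if their normalized counts average 50 or more; Egr2, Egr3, Maf and Ccdc85b were added after their values were seen. A gene that this rule names is not reported here. The listed genes Mrtfa, Mrtfb, Ccn1 and Ccn2 carry older symbols in the files (Mkl1, Mkl2, Cyr61 and Ctgf). Alternatives were DESeq2's size factors, library totals alone, no filter on counts, at least 10 counts in every sample, the Wald test of DESeq2 1.42.0, limma 3.58.1 on log2(FPKM + 1) and log2(FPKM + 0.1), the replicate number as a block, an adjusted p under 0.05, counts in place of FPKM for shares, and leaving out each sample. The edgeR, DESeq2 and limma tests were tried on simulated counts in which 200 of 11535 genes changed, a smaller part than passed here. Shares, ratios, lists and sequence searches were not tried on simulated data. Promoters of Fosl1, Ier2 and Egr1, protein sequences and Egr4 were not analysed here.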

Additional observations from a re-analysis of the deposited data

How the results depend on the processing

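The 6 calls among the tested genes held, with their direction, in 15 alternatives, and the 3 calls at 2-fold in 14 of them; limma on log2(FPKM + 1) kept 2, without Fosb. Over the alternatives, the log2 fold change ran from 1.16 to 1.27 for Junb, from 1.55 to 1.74 for Ier2, from -0.36 to -0.27 for Jun, from 0.35 to 0.46 for Jund and from -1.17 to -0.63 for Fosb. Fosl2 ran from -0.27 to -0.21. Fosl1 and Ier3 did not pass in any edgeR, DESeq2 or limma fit. Fosl1 ran from -0.0315 (without DMSO sample 1, adjusted p = 0.693) to -0.18 (without DMSO sample 2, 0.0154), and Ier3 from 0.033 (without DMSO sample 2, 0.673) to 0.13 (without DMSO sample 1, 0.0385). Limma on log2(FPKM + 1) called 283 of all genes at 2-fold, 202 higher and 81 lower, against 380 higher and 301 lower. With library totals alone, 2630 genes passed as higher and 3165 as lower, against 2976 and 2791. With DESeq2, 1 gene of the MAP kinase pathway list was higher in place of 2. With counts in place of FPKM, which weights long genes more, the share differences were 2.66 points for Fosl1 (1.42 with FPKM), -0.93 for Fosb (-0.57), -1.83 for Fosl2 (-0.96), 16.9 for Junb (20.4) and 2.36 for Jund (-0.40). Leaving out each sample, the Jund difference ran from -0.912 to 0.0197 (the latter without DMSO sample 3), so its sign is not settled. Leaving out each sample in turn gave between 5102 and 5346 genes past the adjusted p and between 621 and 721 at 2-fold.

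The labels number the samples of both groups from 1 to 3. Samples with the same number correlated in their deviations from the group means with Pearson's r of -0.0686, 0.0477 and 0.114 over the 11552 genes, with 0.176, 0.254 and 0.157 over the 9623 genes averaging 100 or more counts, where each DMSO sample was closest to its own number, and with 0.172, -0.0342 and -0.0337 over the 6358 averaging 500 or more. The check thus depends on the count minimum, no source says that a number was shared in handling, and the samples were taken as unpaired. When the replicate number was fitted as a block, the 6 and 3 calls were the same in number and direction, and 5913 of all genes passed, 692 at 2-fold, against 5767 and 681. In pairs, the exact permutation p of the shares and ratios that did not overlap was 0.25 in place of 0.1, the smallest that 3 pairs allow. The low counts of Fos (6 to 15) and Egr1 (0 or 1) limit what can be said of them; Fos without SD70 sample 2 had a log2 fold change of 0.86 (edgeR adjusted p = 0.0687).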

Other observations

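Ier2 and Junb, the pair that rose the most, lie on the same strand of chromosome 8 of GRCm38, 314056 bases apart. Of the 17 listed genes between them, 13 were tested, and 2 were higher, 2 lower and 0 called at 2-fold (edgeR, adjusted p under 0.01). Of all genes tested, 25.8% were higher, 24.2% lower and 5.9% called at 2-fold, so that 0 of 13 at 2-fold does not set this stretch apart. Farsa, a subunit of a tRNA synthetase, had the highest log2 fold change of these (0.40, edgeR adjusted p = 2.41e-06) and the low gene Mast1 the lowest (-0.83, edgeR adjusted p = 0.00264, mean of 35.5 normalized counts). The median over the 13 was 0.0177. Jund lies on the same chromosome, 13960714 bases from Ier2.

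The spread between the 3 samples of a group is described only, since its difference between genes was not tested. Counting error weighs more in genes with few counts, such as Fos and Fosb. With DMSO, the coefficient of variation of the normalized counts was 1.1% for Junb and 1.4% for Fosl2 but 9.86% for Fosl1, 10.3% for Fosb and 12.4% for Fos. With SD70 it was 45.4% for Fos, on few counts, and 3.03% for Fosb, 2.9% for Ier3 and 12.1% for Ier2.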
